A study of Homo sapiens with 6 samples.

Results

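In the chromatin of EndoC-βH3 cells, 473 protein-coding genes had 3 or more accessible promoter regions each. They were found among the 108542 accessible regions of the deposited ATAC-seq table, of which 95361 lay on the 22 autosomes with a mean signal of at least 20. A region was counted as a promoter region of a gene when it overlapped the 500 bp on either side of the start site of a GENCODE protein-coding transcript of that gene, and a gene was taken when at least 3 of its regions could each be given a start site of its own. The 473 genes were 3.35% of the 14135 autosomal protein-coding genes with any promoter region. Of the other genes, 1972 had 2 such regions and 11690 had 1. The 473 genes held 1604 of the 15670 promoter regions. Some regions served 2 genes of the set, which gave 1610 pairs of gene and region.

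Many mammalian genes can be transcribed from alternative promoters. The transcripts then differ in their first exon, and sometimes in the start codon and the amino end of the protein, so that one gene can answer to different regulators in different cells. Promoters in CpG islands, where the dinucleotide CG is kept at a high frequency, are typically active in many cell types, whereas CpG-poor promoters tend to be more cell type-specific. ATAC-seq reports where the transposase Tn5 can reach the DNA. It does not report transcription, and an accessible region at an annotated start site inside a gene can also be an enhancer. Whether each region was used as a promoter was not tested.

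EndoC-βH3 is a human pancreatic beta cell line derived from fetal pancreas and immortalised with the SV40 large T antigen and telomerase, both of which can be removed by a tamoxifen-activated Cre recombinase. The non-senescent group (3 libraries) was proliferating cells that had received no 4-hydroxy tamoxifen (4-OHT). The senescent group (3 libraries) was the same line after 3 weeks of 4-OHT. The labels give both groups the genotype WT, and each library was made from 100000 cells of this line. They do not say whether the 3 libraries of a group came from separate cultures.

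The values used here are the authors' mean signal of each region, averaged in their table over all 6 libraries. A mean over both groups has no error and allows no test, and a small difference between regions cannot be told from none. The accessibility described is that of the line as a whole, and no comparison of senescent with non-senescent cells is made. The depth of the libraries was not analysed here. To compare regions of different width, the mean signal was divided by the region's width in kb. The accessibility given below is this level, and the strongest or weakest region of a gene is the one with its highest or lowest value. The label of a beta cell line was checked with marker genes. Of 20 beta cell markers, 19 had a promoter region, with a median of 1186 mean signal per kb, and the lowest was G6PC2 at 286. INS read 2715 and PDX1 1839, IAPP and KCNJ11 each read 435, and NKX2-2 had no region at this threshold. Of 26 markers of other cell types, 14 had one, with a median of 414. The highest of these were LEPR at 1896, CPA1 at 1298 and CD68 at 921. The hormone gene GCG and the markers PRSS1, CFTR, PTPRC, PECAM1 and ALB had none, and SST read 171.

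The DNA before 2 start sites of the same gene could look very different. The following stretches are the 150 bases before the start site at the strongest and at the weakest region of 3 genes that belong to the lists of beta cell regulators, ion channels and signalling proteins described below. Each is read from the hg38 genome, written 5′ to 3′ on the strand of the gene, with every CG in capitals.
PROX1, strongest region, chr1:213983031-213983180, plus strand: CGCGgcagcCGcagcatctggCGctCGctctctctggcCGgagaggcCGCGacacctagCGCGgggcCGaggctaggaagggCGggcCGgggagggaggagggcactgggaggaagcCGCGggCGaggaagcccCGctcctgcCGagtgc
PROX1, weakest region, chr1:213989568-213989717, plus strand: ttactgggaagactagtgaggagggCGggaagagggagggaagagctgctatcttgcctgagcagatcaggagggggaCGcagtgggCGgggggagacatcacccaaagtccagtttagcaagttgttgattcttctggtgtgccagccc
PDE4D, strongest region, chr5:59768849-59768998, minus strand: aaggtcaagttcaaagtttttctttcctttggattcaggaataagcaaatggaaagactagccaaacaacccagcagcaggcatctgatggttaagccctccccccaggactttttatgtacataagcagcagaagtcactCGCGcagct
PDE4D, weakest region, chr5:59430601-59430750, minus strand: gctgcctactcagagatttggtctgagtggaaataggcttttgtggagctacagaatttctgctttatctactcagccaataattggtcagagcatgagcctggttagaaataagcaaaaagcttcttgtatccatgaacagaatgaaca
KCNIP4, strongest region, chr4:21303990-21304139, minus strand: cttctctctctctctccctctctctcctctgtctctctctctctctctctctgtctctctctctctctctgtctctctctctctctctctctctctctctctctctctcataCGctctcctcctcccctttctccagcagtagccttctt
KCNIP4, weakest region, chr4:21948773-21948922, minus strand: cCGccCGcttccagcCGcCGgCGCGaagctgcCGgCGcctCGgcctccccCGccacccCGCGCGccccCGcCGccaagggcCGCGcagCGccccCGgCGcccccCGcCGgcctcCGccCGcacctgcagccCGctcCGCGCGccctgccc

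In PROX1, a homeodomain factor of pancreas and liver development, the stretch at the strongest region held 18 CG and that at the weakest held 3. The order was the opposite in KCNIP4, which encodes a calcium-binding partner of voltage-gated potassium channels. The stretch at its weakest region held 28 CG, and that at its strongest was mostly C and T with 1 CG. In PDE4D, a phosphodiesterase that degrades cAMP, these stretches held 2 and 0 CG. The pair of PTPRD, a signalling gene described below, was chosen in the same way but is not printed. It was nearly even, with 17 CG at the strongest region and 15 at the weakest. CG content and accessibility thus ran in the same direction in PROX1, PDE4D and, by a small difference, PTPRD. They ran in opposite directions in KCNIP4.

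Most of the 473 genes had just 3 promoter regions (337 genes). A further 99 had 4, 23 had 5, 10 had 6 and 4 had 7. The regions of a gene spanned a median of 50105 bp from the first to the last, and 149 genes had a span of more than 100000 bp. The widest span was the 1947716 bp of DLG2. Between neighbouring regions the median gap was 11145 bp, but 295 of the 1137 gaps (25.9%) were under 1000 bp. In these, the peaks may be pieces of 1 accessible stretch rather than separate promoters, which was not tested. In 22 genes there were fewer separate start sites than regions. Of the 1610 pairs, 815 (50.6%) had the middle of the region in an intron of the gene's canonical transcript, 448 of them in intron 1. Another 631 (39.2%) lay upstream of the canonical start and 121 in exon 1.

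The strongest region was most often, but not mostly, the first in the direction of transcription. It was the most 5′ region in 199 of 473 genes (42.1%), the last in 114 (24.1%) and one in between in 160. The weakest region was the last in 184 genes and the first in 99. Among the 337 genes with exactly 3 regions, where each place had the same number of regions, the first was the strongest in 155, the middle in 95 and the last in 87. Their median accessibility was 561 mean signal per kb at the first region, 382 at the middle and 337 at the last. The quartiles overlapped widely, with 292 to 929 at the first region and 181 to 691 at the last, so position alone said little about a single gene. For genes with 2 regions, which have fewer places to compare, the first was the stronger in 63.1%.

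**Figure D1:**
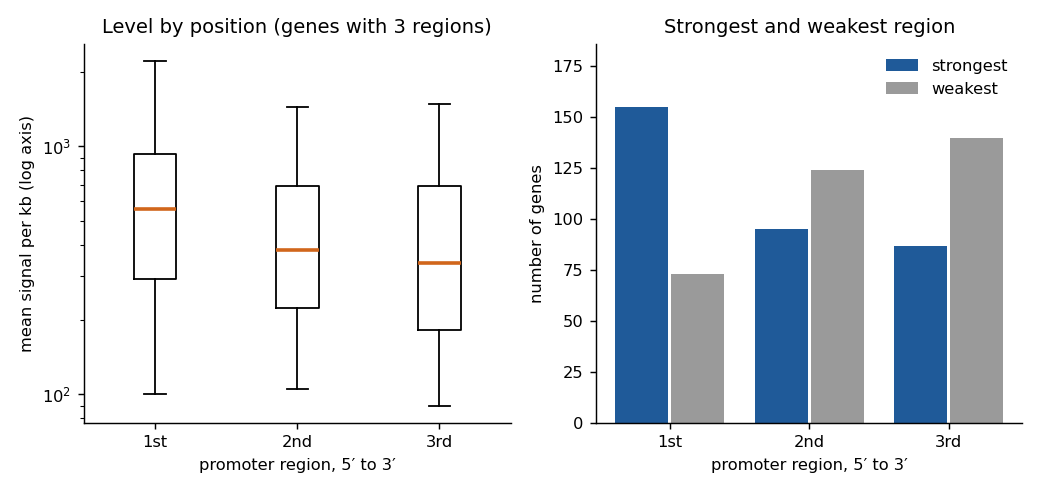
Accessibility by position in the 337 genes with exactly 3 promoter regions. Left, mean signal per kb (log axis) of the 1st, 2nd and 3rd region from 5′ to 3′, with the median (orange), quartiles (box) and the 5th and 95th percentiles (whiskers). Right, number of genes in which each region was the strongest (blue) or weakest (grey). The medians step down from 561 to 382 and 337, and the 1st region was the strongest in 155 genes.

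Within a gene the promoter regions differed severalfold. The strongest exceeded the weakest by a median of 3.63-fold (quartiles 2.37 to 6.35) in mean signal per kb. In 391 genes (82.7%) the ratio was at least 2, in 172 (36.4%) at least 5, in 60 (12.7%) at least 10 and in 14 (2.96%) at least 20. In genes with 2 regions the median ratio was 2.08. Without division by width, the median ratio of the 473 genes was 7.44. A ratio of the highest to the lowest value grows with the number of regions compared, and the minimum signal of 20 keeps out the weakest regions. The strongest region held over 50% of the gene's summed accessibility in 231 genes (48.8%), and its share ran from 23.1% to 87.2%. Without division by width, it held over 50% in 67.7% of genes.

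**Figure D2:**
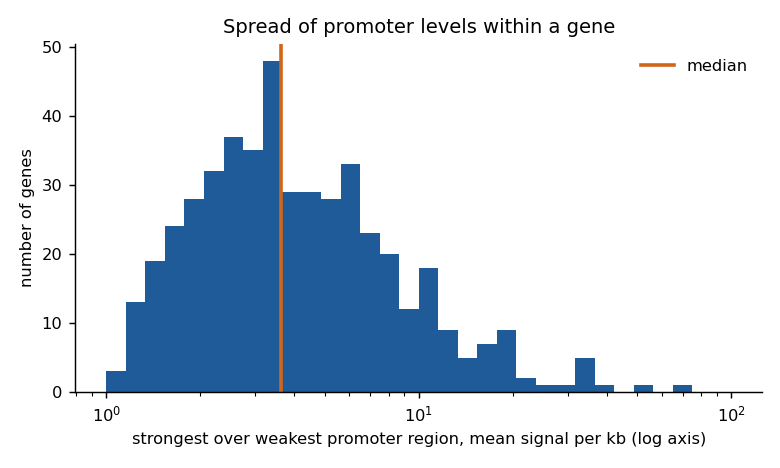
Ratio of the strongest to the weakest promoter region of each of the 473 genes, in mean signal per kb (log axis), against the number of genes. The median, at 3.63, is drawn in orange, and the tail reaches 66.9.

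The promoter regions of these genes were narrower and less accessible than those of genes with 1. Their median accessibility was 409 mean signal per kb, against 670 for regions of genes with 1 promoter region and 498 for genes with 2. Their median width was 820 bp against 1162 bp in genes with 1. The strongest regions of the 473 genes had a median of 864, above that of the regions of genes with a single one, and the weakest had 195. Picking the highest of several values raises its median, so the former is a description of the best region and no sign of a stronger promoter. Regions with a start site inside them (1163 pairs) had a median of 474, and those with the start site only beside them (447 pairs) had 278.

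The canonical start site of GENCODE, the one that represents the gene, was not the most accessible in most genes. Here and below, a region is said to hold the canonical start when that start lay inside it or within 500 bp of it. The same start could thus count for neighbouring regions, and 446 genes gave 542 such pairs. By this rule, a promoter region held it in these 446 of the 473 genes, the first region in 225, and the strongest region in 209 (44.2%). Over all pairs of gene and region, 33.7% held the canonical start, less than the 44.2% of strongest regions. In genes with 2 regions, which have fewer regions to choose from, the stronger held it in 65.3%. Regions with the canonical start had a median accessibility of 497 mean signal per kb (542 pairs, quartiles 276 to 864) and the others 372 (1068 pairs, quartiles 194 to 698). In 278 genes (58.8%) at least 1 pair of promoter regions shared no annotated start codon, so that their transcripts are annotated to begin translation at different places. This share was 30.0% in genes with 2 regions, which have only 1 pair. A gene with more regions has more pairs in which a difference can occur, so the 2 shares are not directly comparable. The strongest and weakest regions themselves had no start codon in common in 184 genes (38.9%). For 103 pairs no start codon was annotated. Here and below, transcripts and start codons are those of the annotation, and their use in these cells was not tested.

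CpG content was lower at the last promoter region of these genes than at the first. It was measured as the number of CG over the number that the base composition would give, in the 250 bp on either side of the middle of each region, where a value over 0.6 is a usual limit for a CpG island. The median was 0.785 at the first region of a gene and 0.412 at the last. At the strongest region it was 0.736 and at the weakest 0.508. The strongest region had the higher value of that pair in 290 of 473 genes (61.3%), close to the 63.2% seen in genes with 2 regions. The value was over 0.6 in 321 strongest regions (67.9%) and in 207 weakest regions (43.8%). Of the 1604 regions, 56.2% were over 0.6, against 86.6% of the regions of genes with 1 promoter region. Most genes mixed both kinds, with 369 genes having regions on both sides of 0.6, 85 having all regions above and 19 having all regions at or below it. Accessibility differed less than this contrast, with a median of 473 mean signal per kb for regions over 0.6 and 330 for the rest. Regions over 0.6 were also wider, at a median of 934 bp against 690 bp.

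**Figure D3:**
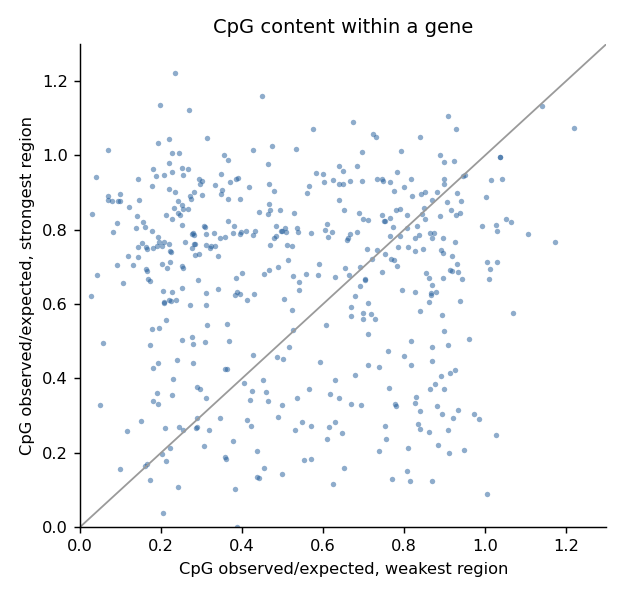
CpG observed over expected ratio of the weakest (horizontal axis) and strongest (vertical axis) promoter region of each of the 473 genes, with the line of equality in grey. Of the points, 290 lie above the line, and a dense group has a CpG-rich strongest region beside a CpG-poor weakest region.

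The letters of 12 binding motifs were searched on both strands of the same window. The GC box (GGGCGG), bound by SP factors, was present in 72.1% of strongest and 53.7% of weakest regions. In 156 genes only the strongest of the pair held it and in 69 only the weakest. Over all promoter regions the share was 76.2%. The GC box itself contains a CG, so it is not independent of CpG content. The same holds for the ETS, cAMP response element and NRF1 motifs that follow. The ETS motif (CCGGAAG) was in 13.5% of strongest and 6.55% of weakest regions, and in 16.8% of all promoter regions. The cAMP response element (TGACGTCA), bound by CREB, was in 14 strongest regions (2.96%) and 2 weakest (0.423%), with 2.50% of all promoter regions holding it. The NRF1 motif (GCGCATGC) was in 3.81% and 1.90%, with 4.27% of all promoter regions. The CCAAT box (CCAAT) was in 39.5% and 33.6%, with 36.3% of all.

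Motifs of factors that bind at enhancers showed another pattern. The AP-1 motif (TGAGTCA) was in 6.42% of the 1604 regions, against 4.12% of all promoter regions, and the forkhead motif (TGTTTAC), bound by FOXA factors, was in 6.17% against 3.92%. Within the genes these were close to even, with AP-1 in 6.13% of strongest and 7.19% of weakest regions and forkhead in 6.55% and 7.82%. The HNF1 motif (GTTAATNAT) was in 3 strongest and 11 weakest regions, and in 0.791% of all promoter regions. The MAF motif (TGCTGAC) was in 7.36% of the 1604 regions against 5.75% of all, and the RFX motif (GTTGCCA) in 7.04% against 5.38%. The YY1 motif (AAGATGG) went the other way, with 6.11% against 8.38%. None of these motifs holds a CG, and the 1604 regions had a median CpG value of 0.667, against 0.795 for all promoter regions. Whether that difference accounts for the shares was not tested. A match of letters is not evidence that a factor was bound.

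A TATA box (TATAAA) anywhere in this window was found in 9.29% of the 1604 regions and 6.51% of all promoter regions. At its usual place, 20 to 40 bases before the start site on the sense strand, it was found in only 14 of the 1604 regions (0.873%), against 2.16% of the regions of genes with 1 promoter region. Of the 14, 6 were the strongest region of their gene and 4 the weakest. Among them were those of ACTB, BBX, MADD, PABPC4, ABLIM1 and PHACTR2 (strongest), of GCLC, EHD1 and GSE1 (in between, GSE1 with a pair of regions that share the start site), and of TSC22D1, NFKBIZ and FAM174B (weakest). The next 5 stretches show the box in capitals within the 150 bases before the start site, in promoters at both ends of the ranking.
PABPC4, strongest region, chr1:39576791-39576940, minus strand: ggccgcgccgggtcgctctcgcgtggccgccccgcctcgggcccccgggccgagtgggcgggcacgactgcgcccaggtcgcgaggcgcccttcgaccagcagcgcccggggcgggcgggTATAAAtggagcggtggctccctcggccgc
ABLIM1, strongest region, chr10:114685004-114685153, minus strand: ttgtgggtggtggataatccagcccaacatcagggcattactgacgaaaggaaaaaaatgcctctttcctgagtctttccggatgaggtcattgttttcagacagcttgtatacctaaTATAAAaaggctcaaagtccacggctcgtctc
PHACTR2, strongest region, chr6:143608030-143608179, plus strand: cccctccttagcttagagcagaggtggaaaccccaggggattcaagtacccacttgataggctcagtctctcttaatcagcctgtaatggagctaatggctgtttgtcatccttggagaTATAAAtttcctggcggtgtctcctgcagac
TSC22D1, weakest region, chr13:44576331-44576480, minus strand: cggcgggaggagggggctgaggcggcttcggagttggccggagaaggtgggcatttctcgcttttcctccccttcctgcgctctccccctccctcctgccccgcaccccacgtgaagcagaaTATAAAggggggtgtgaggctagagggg
FAM174B, weakest region, chr15:92645599-92645748, minus strand: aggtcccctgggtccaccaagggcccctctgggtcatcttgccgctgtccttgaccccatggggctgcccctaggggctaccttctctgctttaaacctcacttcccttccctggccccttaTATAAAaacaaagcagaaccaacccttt

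PABPC4 encodes a cytoplasmic poly(A)-binding protein. Its TATA region was the most 5′ of 4, with 395 mean signal per kb against 250, 123 and 346 at the following ones. ABLIM1, an actin-binding LIM protein, had its TATA region as the third of 5, at 521, with 442 and 434 on either side. PHACTR2, a regulator of phosphatase and actin, also had its TATA region as the third, at 663, with 432 before it and 456 after it. TSC22D1, a leucine zipper protein, had a TATA region at 356 between neighbours at 1196 and 1155. FAM174B had its TATA region as its weakest, at 98.2, between neighbours at 542 and 795. A TATA box at the start site was therefore found in accessible and in weakly accessible regions alike.

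Several transcription factors of the beta cell had multiple promoter regions. Of 45 listed factors with a promoter region, 9 were among the 473 genes (20%), beside 3.35% of all genes with a promoter region. The list includes genes known for alternative promoters, so this share is a description. The 10 lists used here and below were chosen with earlier results of these data known, so the other shares are descriptions too. In 7 of the 9 the most 5′ region was the strongest, in 7 the strongest held the canonical start, and in 8 it had a higher CpG value than the weakest. In 6 of the 9, different regions led to different start codons. The ratio of strongest to weakest ran from 1.57 in GLIS3 to 29.4 in NFIA.

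PAX6, the paired box factor needed by islet endocrine cells, lies on the minus strand of chromosome 11 and had 4 regions. They read, from 5′ to 3′, 975, 1581, 452 and 442 mean signal per kb. The strongest, chr11:31810960-31812974, held the canonical start and was also a promoter region of another gene. The last 2 lay in intron 4, where their transcripts are annotated with a later start codon (31800805) than that of the first region (31806411). The strongest and the weakest PAX6 region, however, had an annotated start codon in common. The upstream pair of PAX6 regions was thus the more accessible, and the internal pair was similar to each other.

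PROX1 had 3 regions on chromosome 1, at 1529, 1123 and 558, with 6537 bp between the first and last start sites. All 3 led to the same start codon, and the strongest lay 4792 bp before the canonical start. MEIS2, another homeodomain factor, had 932 at its canonical first region and 403 and 198 in the introns that followed. The homeodomain genes PROX1 and MEIS2 thus both had a lower value at each region after the first.

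NFIA, a nuclear factor I protein, had 6 regions and the widest ratio among these factors. Its first 2 regions read 1846 and 1429. The third, in exon 1 of the canonical transcript and with 12 transcripts beginning there, read 255. The other 3, in introns, read 80.9, 62.8 and 85.4. The first 2 NFIA regions were neighbours, and their nearest start sites lay 112 bp apart.

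ZBTB20, a zinc finger repressor, began with 2773 at its canonical start, the highest value among the 9 factors, and had 775, 345 and 155 in introns 6 and 7, from 522264 to 692471 bp downstream. MYT1L, a zinc finger factor of neurons and endocrine cells, had 381, 361 and 274 at start sites 6563 bp or less apart, followed by 106 in intron 7. GLIS3, a zinc finger factor that acts on the insulin gene, had the most even set, at 385, 299 and 245. ZFHX3, a zinc finger homeobox protein, ran the other way, from 122 at its most 5′ region, 843743 bp upstream, through 254 to 391 at the canonical start.

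**Figure D4:**
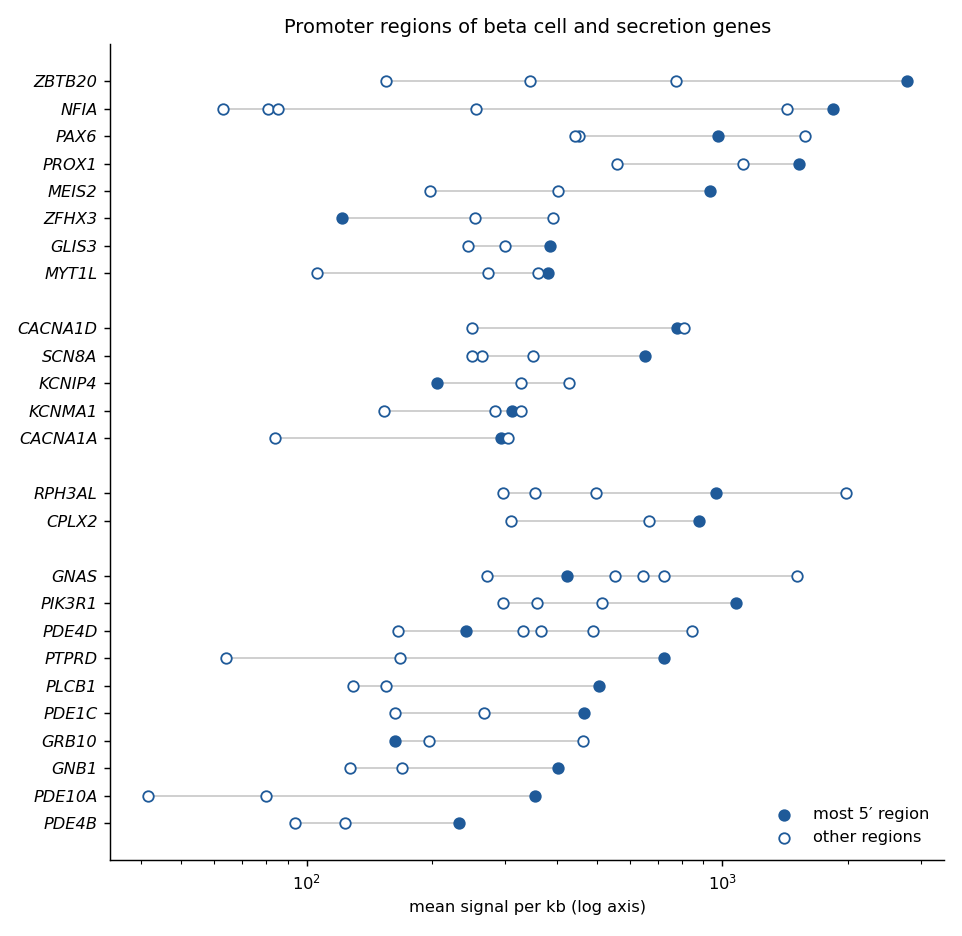
Accessibility of every promoter region of 25 genes on the lists of beta cell transcription factors, ion channels, exocytosis proteins, and glucose and incretin signalling (from top to bottom, separated by gaps), in mean signal per kb on a log axis. Filled points are the most 5′ region of each gene and open points the others, joined by a line per gene. Filled points lie furthest right in 6 of the 8 transcription factors shown and in 1 of the 5 ion channels.

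Among ion channel genes of insulin secretion, 5 of 42 with a promoter region were members (11.9%, beside 3.35% over all genes). Their most 5′ region was the strongest in 1. CACNA1A, the pore of the P/Q-type calcium channel, had 294 mean signal per kb at its most 5′ region, 304 at a start site 24543 bp after it, and 83.8 at the canonical start, 118265 bp after it, where 14 transcripts begin. The canonical region was the weakest of CACNA1A, although it had the highest CpG value (0.913, against 0.381 and 0.415). CACNA1D, the pore of an L-type calcium channel, had 779 and 811 at neighbouring regions around the canonical start and 250 in intron 9. SCN8A, a voltage-gated sodium channel, was the one with the strongest region first, at 650, followed by 351, 264 and 250. KCNMA1, the calcium-activated BK potassium channel, had 311 and 284 at its canonical regions and 329 and 154 in intron 9. In KCNIP4, the canonical region read 205, and the internal regions of intron 1, 644783 and 964731 bp downstream, read 427 and 327. At the nearest start site, each of the 3 KCNIP4 regions led to its own start codon.

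Of 52 granule and exocytosis genes with a promoter region, 3 were members (5.77%, beside 3.35% over all genes). RPH3AL encodes Noc2, a Rab effector on secretory granules, and had 5 regions on chromosome 17. They read 966, 354, 1986, 498 and 298, with the canonical start in the third and strongest. All 5 RPH3AL regions shared a start codon. CPLX2, complexin 2, had 880 at a region 74836 bp before the canonical start, 310 at the canonical region and 666 just after it.

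Of 51 genes of glucose and incretin signalling with a promoter region, 10 were members (19.6%, beside 3.35% over all genes). The most 5′ region was the strongest in 7, and 7 had regions annotated with different start codons. GNAS encodes the stimulatory G protein subunit that links incretin receptors to adenylyl cyclase, in an imprinted locus with several known promoters. It had 6 regions on chromosome 20, at 423, 271, 645, 724, 552 and 1509. The canonical start lay in the region at 724. The strongest was a 319 bp region, chr20:58907772-58908091, in intron 6, where 1 transcript begins. It ranked first per kb only. Before division by width, another GNAS region had the highest mean signal, at 753. At the nearest start site, 4 of the 6 GNAS regions led to a start codon of their own, and the other two shared one. GRB10, an adaptor that restrains the insulin receptor and is also imprinted, had 163, 463 and 197, with the canonical start in the second.

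The phosphodiesterases, which end the cAMP and cGMP signals, made up 4 of these 10 genes. PDE4D had 6 regions with 1448551 bp between the first and last start sites, at 242, 332, 489, 847, 166 and 367. The canonical start was in the third, and the strongest lay in intron 1, 719215 bp from the first. The last 4 PDE4D regions each led, at the nearest start site, to a start codon of its own. PDE10A ran from 354 at a region 324724 bp upstream to 79.7 at the canonical start and 41.6 in intron 1, the lowest value among all 1604 regions. PDE1C had 465, 267 and 164, with the canonical start last. PDE4B had 233 at the canonical start and 123 and 93.6 in introns 3 and 7. In PDE4D, PDE10A and PDE1C the canonical start was thus not in the most accessible region, and 3 of the 4 genes had the strongest region first.

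PIK3R1 encodes the regulatory subunit of PI3-kinase, with shorter forms known from internal starts. Its canonical first region read 1081 and the internal ones 297, 514 and 359, the last 2 of which led to start codons of their own. PTPRD, a receptor tyrosine phosphatase, had 722 at the canonical start, 64.1 at a CpG-rich region in intron 11 (CpG value 1.04) and 168 in intron 12, and all 3 shared a start codon. PLCB1, phospholipase C beta, had 504 at the canonical start against 129 and 155 far downstream. GNB1, a G protein beta subunit, had 402, 127 and 170. The ratio of strongest to weakest over the 10 signalling genes ran from 2.49 to 11.3.

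**Figure D5:**
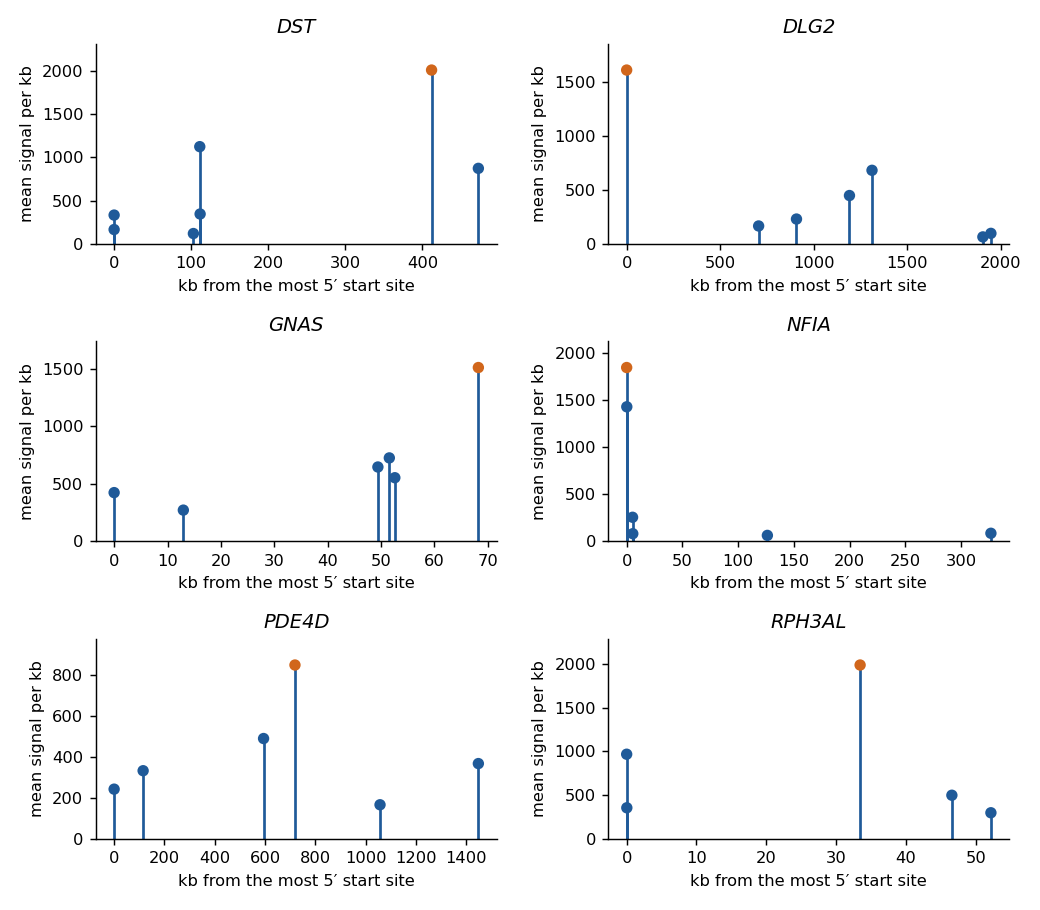
Accessibility (mean signal per kb) of each promoter region along 6 genes, by the distance in kb of its start site from the most 5′ start site of the gene. The strongest region is orange and the others are blue. It is the first in DLG2 and NFIA, the last in GNAS, and an internal one in DST, PDE4D and RPH3AL.

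The 4 genes with 7 promoter regions were DST, NOL4L, DLG2 and FAM107B. DST, dystonin, links cytoskeletal filaments. Its regions read 332, 165, 119, 1124, 345, 2010 and 873 mean signal per kb. The strongest lay in intron 61, and the 2 at the canonical start of DST were among the 3 weakest. DLG2, a scaffold of synapses, was at its strongest at the first region, with 1609, while the internal ones ran from 64.1 to 681 and those in intron 18 read 64.1 and 96.9. NOL4L had its 2 highest values, 1301 and 1246, at internal regions, against 218 and 116 at its first 2. FAM107B, a small actin-associated protein, was low throughout, with 477 at the highest and 85.4 at the lowest. The canonical start lay in none of the regions of DLG2 and FAM107B, and in DST and NOL4L it lay outside the strongest region.

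IGF2, insulin-like growth factor 2, is expressed from several promoters and is imprinted in many tissues. It had 6 regions on the minus strand of chromosome 11. The most 5′, chr11:2153679-2159212, was the widest of all 1604 regions, at 5533 bp, and had the highest mean signal before division by width (7894). Its level per kb was 1427. The next IGF2 regions read 701, 331, 290, 464 (the canonical start) and 565. Of the other genes with 6 regions, MAST4, a microtubule-associated kinase, reached 1036 in intron 4 against 685 at the canonical start. RERE, a nuclear receptor corepressor, reached 1122 in intron 1 against 586 at the canonical start. DENND2B, a regulator of Rab proteins, was highest at its first region, with 934, which it shared with another gene, against 473 at the canonical start.

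Cytoskeleton genes formed the largest group by list, with 28 of 88 genes with a promoter region (31.8%, beside 3.35% over all genes). The size of a group also depends on which genes were listed. Their strongest region was the first in 10 and the canonical in 11, and 21 had regions annotated with different start codons. ANK2, an ankyrin that anchors membrane proteins to spectrin, had 481, 1218, 541 and 2168. The strongest ANK2 region lay in intron 21, and 46 transcripts begin at the first. EPB41L1, a protein of the membrane skeleton, had 272, 826, 167, 184 and 261, with the second at the canonical start. SEPTIN9, which forms filaments, was nearly even at 433, 468 and 349, and then 130 and 302. DST, ABLIM1, ANK2, EPB41L1 and SEPTIN9 thus all had their strongest region after the first.

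Of 50 adhesion and axon guidance genes with a promoter region, 12 were members (24%, beside 3.35% over all genes). Of these, 11 had regions annotated with different start codons. SEMA6A, a semaphorin of axon guidance, ran from 1936 at the canonical start to 686, 711 and 359. DLG4, a postsynaptic scaffold, ran from 505 through 1602 to 1963. MAGI2, a membrane-associated guanylate kinase, read 552, 321 and 246, and CTNND2, delta catenin, read 473, 110 and 405. The strongest region was the first in 6 of the 12, including SEMA6A, MAGI2 and CTNND2, and it held the canonical start in 8.

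General transcription and chromatin regulators gave 23 of 86 genes with a promoter region (26.7%, beside 3.35% over all genes). Of these, 15 had regions annotated with different start codons and 19 had the higher CpG value in the strongest region. SMARCA2, a motor of the SWI/SNF remodeller, had 1021 at the canonical start, 240 before it, and 353, 146 and 98.6 after it. ARID1B, a subunit of the same complex, was strongest in intron 4, with 1092, against 505 at the canonical start. KDM2B, a histone demethylase, had 182 and 98.5 at its first regions and 1342 and 1253 at the internal ones, whose transcripts begin in introns 6 and 8. FOXP1, a forkhead factor, was strongest at its last region, with 502, and FOXP2 at its first, with 438. The canonical region was the strongest in 12 of the 23 genes, SMARCA2 among them, but not in KDM2B, FOXP1, FOXP2 and ARID1B.

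RNA-binding proteins gave 3 of 35 genes with a promoter region (8.57%, beside 3.35% over all genes). ELAVL4, a neuronal RNA-binding protein, had 323, 603, 1051 and 490, with the canonical start in the third. CELF1 had 373, 982, 373 and 174, with the canonical start in the second. TNRC6B, a partner of Argonaute in miRNA silencing, had 2643, 786 and 864, with the canonical start in the last. In ELAVL4 and CELF1, but not in TNRC6B, the canonical region was the strongest.

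Cell cycle and p53 genes, and interferon genes, had shares of members near the 3.35% of all genes with a promoter region. Of 59 cell cycle and p53 genes with a promoter region, 3 were members (5.08%). CCND3, a G1 cyclin, had 791, 289 and 710, the first of them shared with another gene and the last canonical. CDC14B, a phosphatase, had 648, 223 and 610. MYB, a transcription factor of progenitor cells, had 313, 437 and 294. Of 51 interferon genes, 2 were members (3.92%). JAK1, a kinase of cytokine receptors, had 247 and 240 and then 495 at the canonical start. MX1, an antiviral GTPase, had 123, 171 and 119. The regions of MX1 were thus all below 213, the lower quartile of the 1604 regions.

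The largest ratio was that of ANKMY1, with 66.9. Its strongest region, at 3627 mean signal per kb, was also a promoter region of another gene, and its weakest, in exon 9, read 54.2. SYBU encodes syntabulin, which links vesicles to kinesin. It had 535, 89.8 and 481 upstream and at the canonical start, and 5032 at a 358 bp region in intron 3, where 1 transcript begins and the CpG value was 0.0382. GATAD2A, a subunit of the NuRD complex, ran from 3886 through 689 at the canonical start to 103. LMNA, which encodes the nuclear lamins A and C, had the highest value of all 1604 regions, 5131, at chr1:156105919-156106627 upstream of the canonical start, which itself read 707. The first LMNA region read 403 and the last, in intron 1, 141. In SYBU, GATAD2A and LMNA the most accessible region was not at the canonical start.

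The other 6 of the 10 largest ratios, from 25.1 to 34.9, were those of NCOA2, CAMTA1, ADGRV1, PKD1, NFIA and DLG2. NCOA2, a nuclear receptor coactivator, had 2320 in intron 1 beside 497 at the canonical start and 66.4 in intron 2. CAMTA1, a calmodulin-binding transcription activator, had 1532 at the canonical start, 44.9 in intron 9 and 741 in intron 11. ADGRV1, an adhesion receptor, had 1412 and 3080 at its upstream regions, the stronger of which held the canonical start. Its regions in introns 66 and 83 read 129 and 91.1. PKD1, polycystin, had 2948 at the canonical start and 91.2 in intron 20.

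The 10 smallest ratios ran from 1.08 to 1.25. TBC1D24, a Rab regulator, had 481, 493 and 518, the first 2 of them on either side of the same start site. NCOA7 had 667, 746 and 738, and LARP1, an RNA-binding protein, 801, 709 and 752. BDNF, a neurotrophin with a long-known array of promoters, had 4 regions between 164 and 195, all low. SREBF1, a regulator of lipid synthesis, was even at a higher level, with 1270, 1183 and 1036, and ING5, a chromatin reader, had 2458, 2982 and 2585. Even regions were therefore found at low (BDNF) and high (ING5) levels of accessibility.

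The 10 highest levels included those of ANKMY1, SYBU, GATAD2A and LMNA above. The other 6 genes had ratios from 3.72 in COPS7B to 22.0 in MPP7, and in 5 of them the ratio was above the upper quartile of 6.35. GNAI2, an inhibitory G protein subunit, had 4135 at its canonical start, between 921 and 372. COPS7B, a subunit of the COP9 signalosome, had 3641 at a first region shared with another gene, followed by 980 and 1161. FAM117A had 2695 and 3532 at its first 2 regions and 226 at the last. HDLBP, an RNA-binding protein, had 3339 at its canonical start and 1489 in intron 25. MPP7, a cell polarity scaffold, had 3258 at its canonical start between 475 and 148, and ANKRD11, a chromatin regulator, had 3241 at its canonical start with 405 to 1184 at internal regions. Of these, COPS7B was the exception in having its canonical start in the weakest region.

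The minimum mean signal decided membership for some genes. The regions nearest above it that held a gene in the set belonged to PPHLN1 (mean signal 20.5), TNS1 (20.9) and FLRT2 (20.9). LTBP3, CES5A and SORBS3 were left with 2 regions because the next had 19.5, 18.8 and 18.6.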

How the data were processed

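Accessibility was measured by ATAC-seq in 3 non-senescent and 3 senescent libraries of EndoC-βH3, grouped by the labels. The authors processed the paired-end reads on hg38 with, per the labels, Trim Galore, cutadapt, Bowtie, SAMtools, Picard, MACS2 and DESeq2. The mean signal used here is the deposited average over the 6 libraries of read counts normalised by the authors with DESeq2. The other 5 value columns hold the authors' comparison of the groups (log2 fold change, standard error, statistic, p-value and adjusted p-value) and were not used. The table has no value per library, so no test was made. Regions keep the coordinates of the table, whose start convention is not stated.

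Start sites, canonical transcripts and start codons came from GENCODE release 44, and sequences from the hg38 genome, with Python 3.11.15, pandas 2.3.3, numpy 2.4.6, scipy 1.17.1 and pysam 0.24.0. Regions were matched to start sites by maximum bipartite matching. Each was described by its nearest start site. The code was tested on simulated data, where the right number of promoter regions was found for 200 of 200 genes. The simulated start sites were widely spaced and no region was shared between genes, so the test was simpler than these data. Named genes were the 10 with the most regions, the largest and smallest ratios and the highest levels, the members of 10 lists, and those nearest the minimum signal. Genes with a TATA box at the start site were also named. The members and lists were chosen with earlier results of these data known. Some members are not reported here.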

Additional observations from a re-analysis of the deposited data

How the results depend on the processing

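Of 71 values recomputed over 11 alternative settings, 55 stayed within the 95% interval of the main value and 16 did not. For the number of genes, the limit was 1.5-fold instead. The intervals are binomial and treat genes or regions as independent draws. The alternative settings reuse many of the same genes, so the interval serves only as a yardstick for how far a value moved. No paired analysis was possible because each region has only 1 mean over both groups. With start sites required inside the region, the number of genes was 237, the share with the canonical start in the strongest region 34.6% and the share with different start codons 65.8%. With basic transcripts alone, the number was 230, the median ratio 3.36 and the start codon share 70%. With regions under 1000 bp apart joined, these were 301, 4.08 and 64.5%. A window of 1000 bp gave 49.8% for the canonical start and 50.2% for start codons. Ranking by summed mean signal instead of mean signal per kb gave a median ratio of 7.44, the first region as strongest in 46.7%, over 50% of the summed level in the strongest region in 67.7%, and a higher CpG value there in 67.02%. Counting TATAAA within 250 bp of the middle of the region gave 9.25% of pairs. The cause of these differences was not tested. Without values per library, differences between regions of a gene cannot be set against replicate error.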
